A study of Drosophila melanogaster with 9 samples.

Results

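Of the 99 piRNA clusters in the deposited cluster tables, 7 lie on the X chromosome of Drosophila melanogaster, 6 on the arm named X and 1 on XHet, the arm name for X heterochromatin. They were taken by arm name alone, with no use of their read counts. Their reads were followed in 5 testis small RNA libraries. The bam and bgcn libraries, from whole testes of mutants in 2 genes that germ cells need to leave mitotic division, formed the spermatogonia group. The can and sa libraries formed the spermatocyte group and came from meiotic-arrest mutants, whose testes had their apical tips cut off to take away mitotic germ cells. The fifth library came from whole y w testes, which hold germ cells from gonialblasts to sperm. The labels give neither ages nor mutant alleles for these 5 stocks. Stage, mutant stock and tip removal differ together, so their parts in a difference between the groups cannot be told apart. Small RNA was sequenced, so no marker gene of any cell type was measured, and the stages rest on the labels.

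PIWI-interacting small RNAs (piRNAs) lead Piwi-family proteins to the transcripts of transposons, and clusters are the loci, rich in transposon remnants, whose long transcripts are cut into them. The cluster flamenco is transcribed from a single strand and carries gypsy-family fragments mostly in antisense orientation. In somatic cells of the ovary its piRNAs load Piwi and silence gypsy, ZAM and Idefix. The neighbouring 20A cluster is another single-strand source. Testes hold somatic hub and cyst cells beside the germ cells, and both compartments make piRNAs.

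The 7 clusters run along X as follows, with coordinates as deposited and with short names given here to those that have no textbook name. XA is X:11089529-11095706 (6.18 kb) and XB is X:12664996-12666347 (1.35 kb), both far from the others. The 20A position is X:21392175-21431907 (39.7 kb), and the flamenco position is X:21505666-21684449 (178.8 kb). XC is X:21759393-21844063 (84.7 kb), XD is X:22342541-22383561 (41.0 kb) and the XHet cluster is XHet:170080-204036 (34.0 kb). No genome build is stated in the sources used here. The arm names belong to Release 5 naming, since XHet and the arms of 61 of the 99 clusters are absent from the BDGP6 annotation, and the names 20A and flamenco rest on position in that release. Thus 20A, flamenco and XC stand in a row, with gaps of 73.8 kb and 74.9 kb between them. By length flamenco was 2nd of the 99 clusters and XB 98th.

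Cluster-mapping reads ranged from 11636 (sa) to 32654 (bgcn) per library, and transposon-mapping reads of the same libraries from 262757 to 580459. Cluster reads amounted to 4.16 (can) to 5.63 (bgcn) per 100 transposon-mapping reads. The median absolute log2 ratio of shares was 0.90 between bam and bgcn over the 95 clusters with at least 10 reads in both, and 0.48 for can against sa over the 62 such clusters, so these medians rest on different sets. With sign kept the medians were -0.75 for bgcn against bam and -0.090 for sa against can. The spread between bam and bgcn thus includes a shift of most clusters to lower shares in bgcn. These libraries are different mutants with a single library each. The spread behind the p-values therefore mixes genotype with differences between animals, dissections and library preparations, which cannot be told apart. Ranges in brackets after a share are exact binomial intervals at the 95% level, which reflect counting alone. The sources used here state neither the read lengths counted nor how reads that fit several loci were handled. Clusters share transposon fragments, so the value of a single cluster is uncertain to that extent.

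No difference between stages was detected in the summed share of the 7 clusters, and flamenco supplied the largest part of their reads in each of the 5 libraries, from 37.1% (y w) to 59.3% (sa). Their summed share of cluster-mapping reads was 25.5% (24.9 to 26.1) in bam, 23.9% (23.4 to 24.3) in bgcn, 20.7% (20.1 to 21.2) in can, 29.95% (29.1 to 30.8) in sa and 18.3% (17.7 to 18.8) in y w. The spermatogonia libraries lay between those of the spermatocyte group, and y w lay below all 4. Group means were 24.7 ± 1.14% and 25.3 ± 6.56% (SD, n = 2 each), with an exact two-sided permutation p of 1 over the 4 libraries, where 0.333 is the smallest p the design allows. Without bgcn and without sa the sign of the difference turned, at -0.033 and -0.25 on the log2 scale against 0.014 with all 4. A pair of clusters on U, the arm of unplaced sequence, held 1.83 ± 1.03% and 14.4 ± 1.55% (SD, n = 2 each), and 15.7% in y w, which by construction lowers the other shares of can, sa and y w. With that pair, chosen from earlier results, taken out of the totals, the summed X share was 25.7% in bam, 24.48% in bgcn, 24.46% in can, 34.5% in sa and 21.7% in y w. The difference between stages was then 0.21, the groups still overlapped, and y w still lay below all 4. Without flamenco the other 6 clusters held 12.0 ± 2.15% and 12.1 ± 0.116% (SD, n = 2 each). For comparison, the 10 clusters on 2R held 13.5 ± 2.44% and 7.48 ± 1.27%, and the 9 on 2L held 32.2 ± 7.65% and 28.9 ± 0.414% (SD, n = 2 each).

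**Figure D1:**
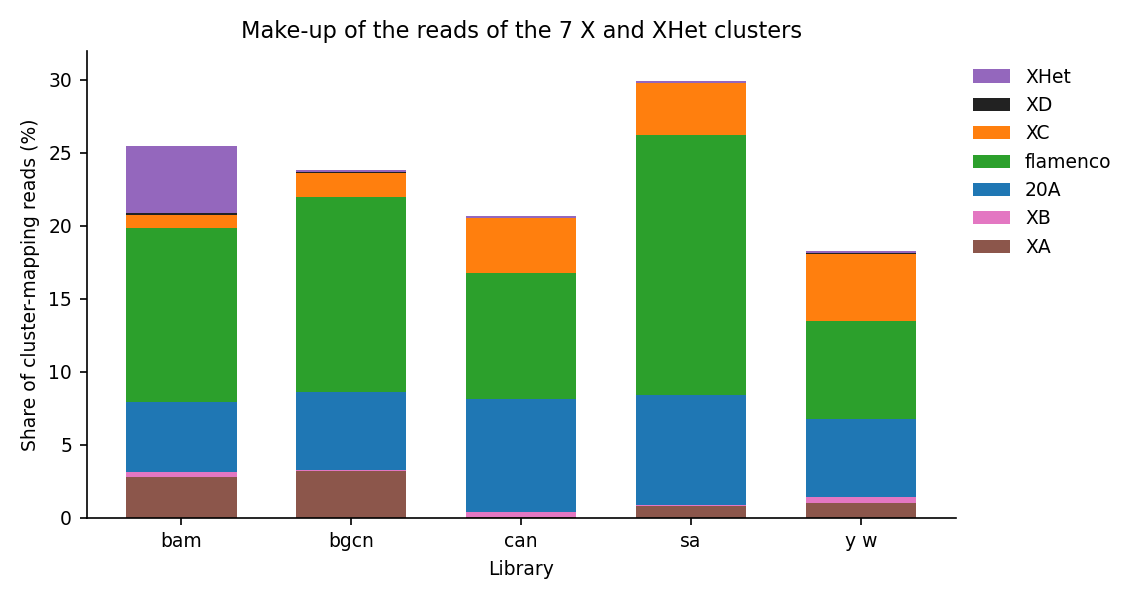
Stacked bars give the share of cluster-mapping reads (%) of each of the 7 X and XHet clusters in each of the 5 libraries. The total ran from 18.3% in y w to 29.95% in sa, XHet was prominent in bam alone, and XC took a larger part in can, sa and y w.

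The flamenco cluster had 2493 raw reads in bam, 4359 in bgcn, 1868 in can, 2067 in sa and 1244 in y w. These were 11.9% (11.5 to 12.4), 13.3% (13.0 to 13.7), 8.65% (8.28 to 9.03), 17.8% (17.1 to 18.5) and 6.77% (6.41 to 7.14) of cluster reads. The bam and bgcn shares lay close together between those of can and sa, which differed 2.05-fold, so the groups overlapped. By share flamenco ranked 2nd or 3rd of the 99 clusters in the 4 stage libraries and 5th in y w. Its log2 fold change from spermatogonia to spermatocyte testes was 0.95 (SE 1.06) after TMM scaling, with an adjusted p of 0.553 in edgeR's quasi-likelihood test. Per 100000 transposon-mapping reads, flamenco gave 568 and 751 reads in bam and bgcn, 360 and 787 in can and sa, and 349 in y w. On this basis, too, can and y w were the low libraries and the groups overlapped. After TMM scaling over the 5 libraries, that is with each share divided by its library's TMM factor, flamenco stood at 6.48% in bam, 13.4% in bgcn, 12.04% in can, 22.4% in sa and 7.04% in y w. There the groups overlapped as well, but bam was the lowest stage library and can lay near bgcn. In bulk testes fewer cells of a type and fewer small RNAs per cell cannot be told apart.

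By share the 20A cluster was the steadiest of the larger ones within each group. It had 1005 reads in bam, 1735 in bgcn, 1669 in can, 882 in sa and 974 in y w. Its shares were 4.80% (4.52 to 5.10) in bam and 5.31% (5.07 to 5.56) in bgcn, against 7.73% (7.38 to 8.09) in can and 7.58% (7.11 to 8.08) in sa. Both spermatocyte shares lay above both spermatogonia shares, and can and sa did not differ beyond counting error. The y w share of 5.30% (4.98 to 5.64) matched bgcn within counting error. With each share divided by the TMM factor 20A stood at 2.61% in bam, 5.35% in bgcn, 10.8% in can and 9.57% in sa. The groups did not overlap there either, but bam and bgcn lay further apart than by share. Per 100000 transposon-mapping reads they did not overlap, at 229 in bam, 299 in bgcn, 321 in can and 336 in sa. In the authors' normalised reads they did overlap, at 941 in bam, 1489 in bgcn, 1186 in can and 1141 in sa. The log2 fold change was 1.45 (SE 0.86), and the edgeR adjusted p of 0.367 missed the threshold of 0.05.

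XC, on the other side of flamenco from 20A, had 190 reads in bam, 532 in bgcn, 811 in can, 418 in sa and 842 in y w. Its shares were 0.908% (0.784 to 1.05), 1.63% (1.49 to 1.77), 3.76% (3.51 to 4.02), 3.59% (3.26 to 3.95) and 4.58% (4.29 to 4.90). The spermatocyte libraries did not overlap with the spermatogonia libraries, and y w stood above all 4. The mean share was 1.27 ± 0.510% over the spermatogonia pair and 3.67 ± 0.116% over the spermatocyte pair (SD, n = 2 each). The log2 fold change of 2.30 (SE 0.82) was the largest positive one among the 7, with an unadjusted p of 0.0268 and an adjusted p of 0.160 in edgeR. DESeq2 called XC higher in spermatocyte testes (log2 fold change 2.38, adjusted p 9.07e-03). The adjusted p of XC in edgeR ran from 0.0635 without bgcn to 0.301 without bam, whose log2 fold changes were 3.36 and 1.68.

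XA, a short cluster in the middle of the arm, took a larger share in both spermatogonia libraries. It had 591 reads in bam and 1037 in bgcn, against 13 in can, 94 in sa and 190 in y w. These were 2.83% (2.60 to 3.06), 3.18% (2.99 to 3.37), 0.0602% (0.0321 to 0.103), 0.808% (0.653 to 0.988) and 1.03% (0.893 to 1.19) of cluster reads. The bam and bgcn shares differed 1.12-fold, while can and sa differed 13.4-fold, with both below both spermatogonia libraries. With each share divided by the TMM factor XA stood at 1.54% in bam, 3.20% in bgcn, 0.0838% in can and 1.02% in sa, so that bam and sa lay closer together than by share. XA ranked 7th and 6th of 99 in bam and bgcn and 78th in can. The log2 fold change was -1.89 (SE 1.14) and did not pass in edgeR (adjusted p 0.367). Without sa it was -4.94, at an edgeR adjusted p of 0.0487, and without can -0.96, at 0.738. With library totals in place of TMM scaling XA passed, at -2.80 and an edgeR adjusted p of 9.18e-03, and in that fit 13.1% of all clusters passed.

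The XHet cluster was set by 1 library. It had 963 reads in bam, but 64 in bgcn, 22 in can, 15 in sa and 26 in y w. Its share was 4.60% (4.32 to 4.90) in bam, 0.196% (0.151 to 0.250) in bgcn, 0.102% (0.0639 to 0.154) in can, 0.129% (0.0722 to 0.213) in sa and 0.142% (0.0925 to 0.207) in y w. The 2 spermatogonia genotypes differed 23.5-fold, whereas bgcn, sa and y w lay within counting error of each other. XHet was 6th of the 99 clusters in bam and between 53rd and 61st in the other 4. The log2 fold change was -3.08 (SE 1.15, unadjusted p 0.0320, edgeR adjusted p 0.166), and without bam it was -0.28 (edgeR adjusted p 0.753). With bam kept, XHet passed when bgcn (-3.97, edgeR adjusted p 0.0164) or can (-2.84, 0.0311) was left out. It also passed with y w added to the fit (-3.15, 2.82e-03, with 15.2% of all clusters passing) and with library totals (-4.38, 3.50e-04). All of these calls include the bam library.

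XB and XD were small. XB had 62 reads in bam, 44 in bgcn, 74 in can, 6 in sa and 74 in y w, or 0.296%, 0.135%, 0.343%, 0.0516% and 0.403% of cluster reads. Its groups overlapped, and sa was the low library. It had a fitted log2 change of 0.91 (SE 0.73) at an edgeR adjusted p of 0.448, and of -0.95 without can. XD, with 23 reads in bam, 19 in bgcn, 7 in can, 3 in sa and 6 in y w, stayed between 86th and 95th of the 99 clusters by share. Its spermatocyte shares lay below its spermatogonia shares, but the intervals of bgcn (0.0350 to 0.0908%) and can (0.0130 to 0.0668%) overlapped. Its log2 fold change was -0.51 (SE 0.62, edgeR adjusted p 0.566). With the authors' factors in place of TMM scaling it passed (edgeR adjusted p 0.0437), so its call depended on the scaling.

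**Figure D2:**
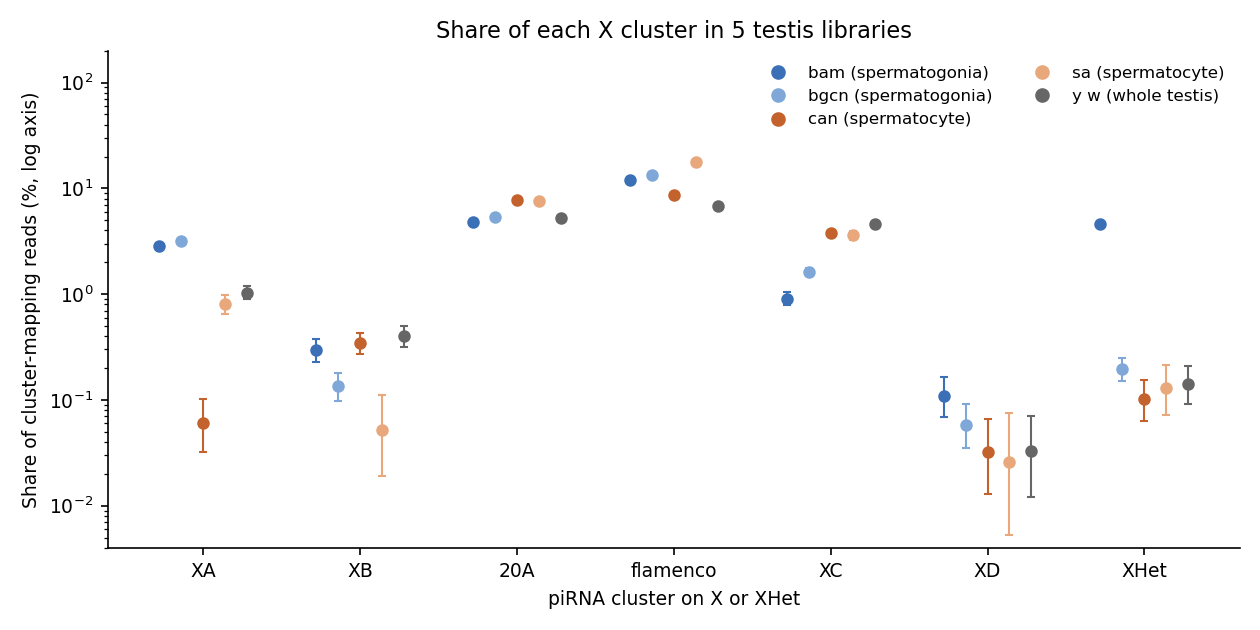
Points give the share of cluster-mapping reads (%, log axis) of each X and XHet cluster per library, and bars the 95% exact binomial interval. XA was high in bam and bgcn, 20A and XC were higher in can and sa than in bam and bgcn, and XHet was high in bam, at 4.60% against at most 0.196% elsewhere.

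None of the 7 clusters passed an adjusted p of 0.05 in edgeR's quasi-likelihood test, where 1 of all 99 clusters passed (1.01%). At an unadjusted p under 0.05 XC (higher) and XHet (lower) passed, 2 of 7, against 24.2% of all clusters (15.2% higher, 9.09% lower). DESeq2 called 1 of the 7, XC, against 17.2% of all clusters. In shares the groups did not overlap for 5 of the 7 clusters, 2 higher in spermatocyte testes (20A, XC) and 3 lower (XA, XD, XHet), against 67.7% of all clusters (13.1% higher, 54.5% lower). After TMM scaling the same 5 did not overlap, against 58.6% of all clusters (23.2% higher, 35.4% lower). These counts of the X clusters, 5 of 7 and 2 of 7, were not far from the background.

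Scaling set the sign of several values. Across all 99 clusters the median log2 change between stages stood at -0.11 under TMM, at -0.93 under library totals, at -1.19 per transposon-mapping read and at -1.58 under the factors that the authors applied to each library. The median of the 7 X clusters was 0.91, -0.08, -0.34 and -0.62 in the same order. A scaling moves all clusters by nearly the same amount, so the distance of a cluster from that median hardly depends on it by construction. XC lay 2.40 to 2.46 above that median on the log2 scale, 20A 1.51 to 1.57 above, flamenco 0.98 to 1.06 above and XB 0.84 to 1.03 above. XD lay -0.55 to -0.40 from it, XA -1.90 to -1.78 and XHet -3.45 to -2.97. These ranges vary the scaling alone. With 1 library left out under TMM scaling, the distance of flamenco ran from 0.51 to 1.62. It ran from 1.78 to 3.30 for XC, 1.13 to 1.96 for 20A and -0.76 to 1.87 for XB. XD ran from -0.61 to -0.19, XA from -4.58 to -0.77 and XHet from -4.03 to -0.18, the last without bam. With the authors' factors XA (-3.48, edgeR adjusted p 6.42e-04), XD (-2.04, 0.0437) and XHet (-4.77, 4.73e-06) passed as lower, 3 of 7 in a fit where 51.5% of all clusters passed and 48.5% passed as lower. On that scale flamenco had -0.60 and 20A -0.062, and neither passed. Per transposon-mapping read XA and XHet passed as lower, in a fit that called 39.4% of all clusters.

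**Figure D3:**
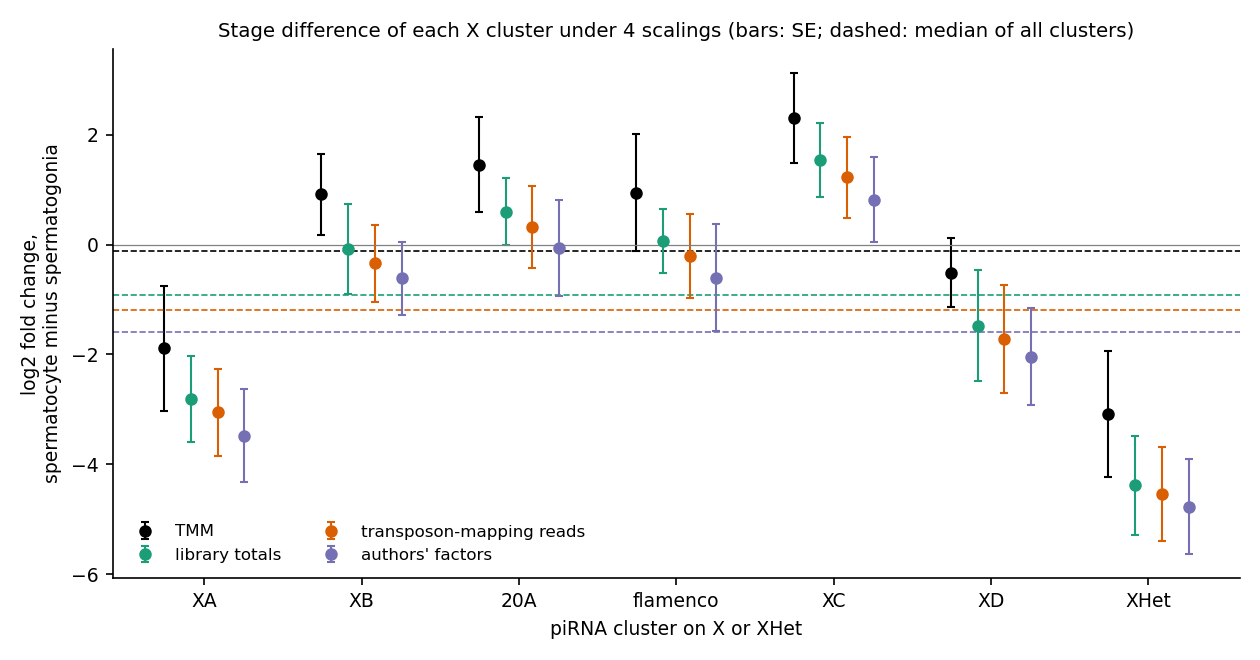
Points give the log2 fold change from spermatogonia to spermatocyte testes of each X and XHet cluster under 4 scalings, with bars of 1 SE and dashed lines at the median of all 99 clusters. From TMM scaling to the authors' factors every cluster shifted down together with the median of all 99, from 0.95 to -0.60 for flamenco.

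Ratios between X clusters within a library need no scaling. For 1 read of 20A there were 2.48 (2.30 to 2.67) reads of flamenco in bam, 2.51 (2.38 to 2.66) in bgcn, 1.12 (1.05 to 1.20) in can, 2.34 (2.16 to 2.54) in sa and 1.28 (1.17 to 1.39) in y w. The bam, bgcn and sa ratios lay within counting error of each other, while can and y w were lower. The difference between stages was -0.62 on the log2 scale (exact permutation p = 0.333, the smallest possible), while it was -0.091 without can and -1.16 without sa. Per kilobase flamenco had 0.551 (bam), 0.558 (bgcn), 0.249 (can), 0.521 (sa) and 0.284 (y w) of the read density of 20A. The longer flamenco interval was thus the sparser of the pair in all 5 libraries.

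The ratio of XC to 20A separated the groups. XC had 18.9 reads per 100 of 20A in bam and 30.7 in bgcn, but 48.6 in can, 47.4 in sa and 86.4 in y w. The spermatocyte ratios agreed within counting error and were 1.99-fold higher than the spermatogonia ratios in the mean of log values (exact permutation p = 0.333, the smallest possible). XC per 100 reads of flamenco went from 7.62 (bam) and 12.2 (bgcn) to 43.4 (can), 20.2 (sa) and 67.7 (y w). XA gave the opposite order, with 23.7 and 23.8 reads per 100 of flamenco in bam and bgcn, 0.696 in can, 4.55 in sa and 15.3 in y w. That was a 13.3-fold lower ratio in the mean of log values, again at the smallest possible exact permutation p of 0.333, and 5.22-fold without can and 34.1-fold without sa. In all, 8 such ratios were formed, and with 4 libraries none could reach 0.05. All but XB to flamenco stood at the smallest possible exact permutation p of 0.333, so that p sets no ratio apart.

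**Figure D4:**
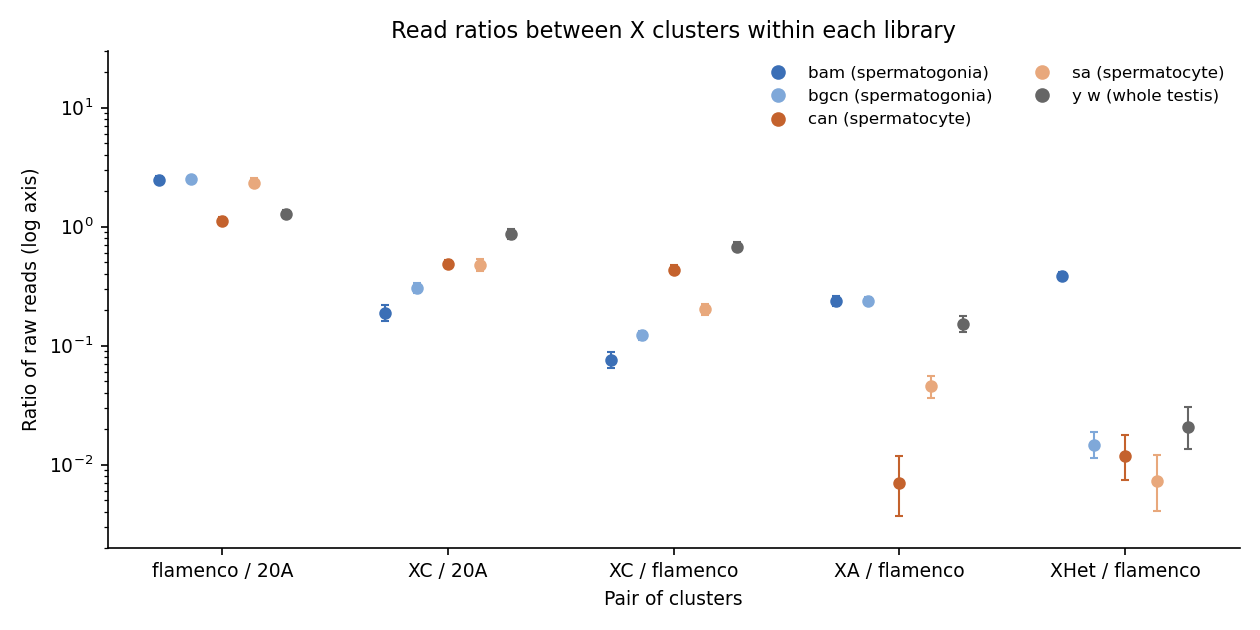
Points give ratios of raw reads between pairs of X clusters within a library (log axis), and bars the 95% exact binomial interval. The flamenco to 20A ratio was 2.34 to 2.51 in bam, bgcn and sa and 1.12 and 1.28 in can and y w, and XA to flamenco was nearly equal in bam and bgcn.

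Read density per length ordered the clusters differently from their shares. Scaled to reads per kb per 100000 cluster reads, flamenco had 66.7 in bam, 74.7 in bgcn, 48.4 in can, 99.4 in sa and 37.9 in y w, and 20A had 121, 134, 195, 191 and 133. XA was denser than both in the spermatogonia libraries, at 457 (bam) and 514 (bgcn), the 2nd highest density of the 99 clusters in each. In can it was at 9.74, in sa at 131 and in y w at 167, the last again above both. XB, on few reads, was denser than both flamenco and 20A in bam (219), can (253) and y w (298). In bgcn (99.7) and sa (38.1) it was not. XHet was denser than both in bam alone (136). By density XC ranked 50th of the 99 in bam, 15th in bgcn, 13th in can and 12th in both sa and y w. The median density of all 99 clusters was between 3.79 (sa) and 10.7 (bam) on this scale, and XD stayed at 0.629 to 2.68.

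In y w testes, 4 of the 7 clusters (XA, 20A, XD and XHet) had shares within the range of the 4 stage libraries, against 78.8% of all clusters. The y w share of flamenco lay below that range, at 0.536 of the spermatogonia mean and 0.513 of the spermatocyte mean. XC and XB lay above it. For XC the y w share was 3.61 times the spermatogonia mean and 1.25 times the spermatocyte mean. After TMM scaling y w fell inside that range for all 7, against 70.7% of all clusters, so these positions depended on the scaling. A single y w library allows no replicate check, and nothing was tested against it.

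Beside flamenco, reads mapping to 11 gypsy-family elements typical of somatic gonadal cells were read from the transposon tables. Cluster and transposon tables may count the same reads. Of these elements gypsy, ZAM and Idefix are the classical targets of flamenco control in ovaries. The element gypsy took 0.294% of transposon-mapping reads in bam, 0.237% in bgcn, 0.160% in can, 0.361% in sa and 0.130% in y w. ZAM took 0.0843%, 0.101%, 0.0283%, 0.195% and 0.0824% in the same order. Idefix took 1.64%, 2.23%, 0.595%, 0.765% and 0.847%. Like flamenco, gypsy and ZAM had their highest share in sa and their lowest stage share in can, whereas Idefix was higher in both spermatogonia libraries. The likeness in the low library held by share only. With each share divided by its TMM factor, the lowest stage library was bam for flamenco, bgcn for gypsy and can for ZAM.

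None of the 11 elements passed the edgeR test, where 10.5% of the 114 tested elements did. Their log2 fold changes were 0.44 for gypsy, 0.69 for ZAM and -1.002 for Idefix, and the lowest edgeR adjusted p was 0.135, for gypsy5 (-2.47), which alone of the 11 had an unadjusted p under 0.05 (20.2% of all). DESeq2 called gypsy5 lower (-2.39, adjusted p 0.0127), in a fit that called 14.9% of all elements, and so did edgeR with the authors' factors (adjusted p 0.0450, 8.77% of all elements). The median log2 fold change of the 11 was -0.05, against -0.05 over all elements. Groups did not overlap by share for 5 of the 11, against 51.8% of all elements. These were Stalker2, which was higher in spermatocyte testes (13.2% of all), and gypsy5, Idefix, Stalker and Stalker4, which were lower (38.6% of all).

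The 11 elements together held 9.49% of transposon-mapping reads in bam, 10.2% in bgcn, 4.79% in can, 7.46% in sa and 7.14% in y w. Stalker and Stalker4 had similar counts in each library, such as 6391 and 5985 in bam. Whether the elements share reads was not tested, so these 2 may not be separate members. Within the spermatocyte group 10 of the 11 had a lower share in can than in sa, all but Stalker2, against 57% of all tested elements. In 9 of the 11 can had the lowest share of the 4 stage libraries, against 43% of all. The flamenco share was likewise lower in can than in sa, as were those of 35.4% of all clusters. By share can was the lowest stage library for flamenco and for 26.3% of all clusters. With TMM scaling flamenco was instead lowest in bam, at 6.48% against 12.04% in can. The element counts depend on the scaling too. The TMM factors of the transposon counts were 1.22 (bam), 1.27 (bgcn), 0.778 (can) and 0.940 (sa). With each share divided by them, gypsy was lowest in bgcn and gypsy10 in bam, and Quasimodo was higher in can than in sa. The part of somatic cell content in the flamenco values was not tested. Per 100 reads of gypsy, ZAM and Idefix together there were 28.2 reads of flamenco in bam, 29.2 in bgcn, 45.9 in can, 59.6 in sa and 32.9 in y w. Idefix made up most of the reads of these 3 elements. Per read of gypsy and ZAM alone, a sum chosen after its values were seen, flamenco had 1.5 reads in bam, 2.22 in bgcn, 1.91 in can, 1.41 in sa and 1.64 in y w. Per 100 reads of all 11 elements it had 5.99, 7.38, 7.51, 10.5 and 4.88 in the same order. The spermatocyte libraries were thus higher for the 3 elements together, the groups overlapped for gypsy and ZAM, and for all 11 can was close to bgcn.

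**Figure D5:**
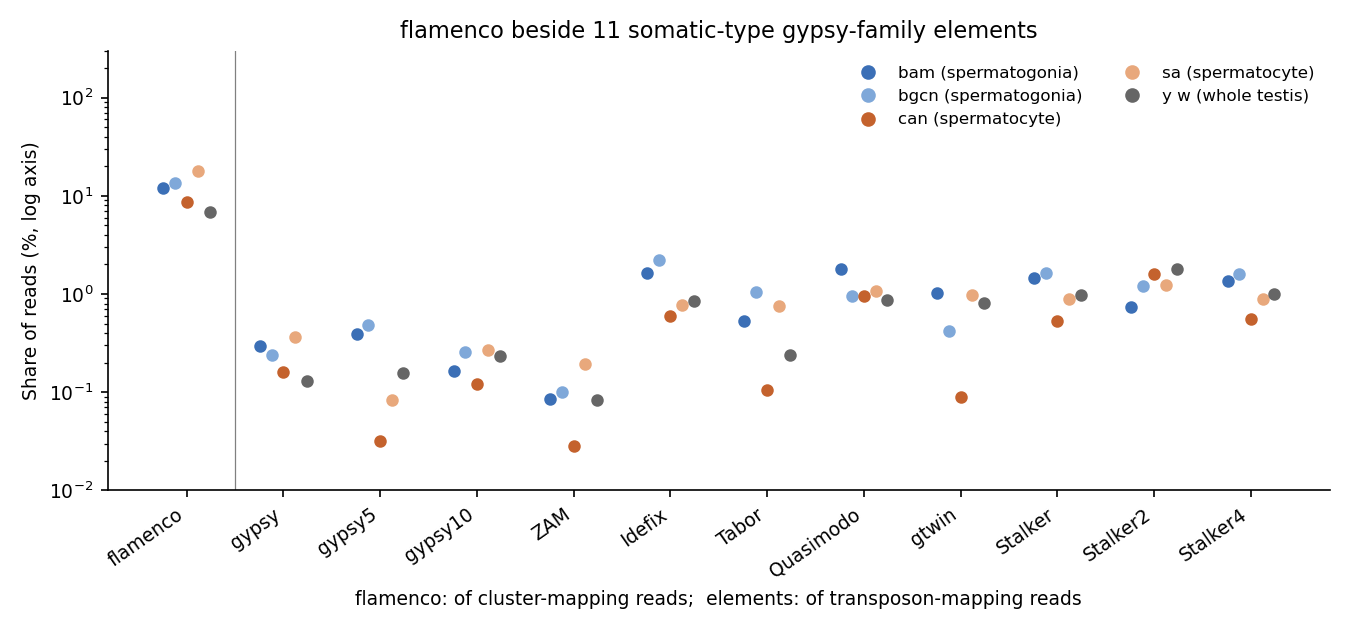
Points give, per library, the share of flamenco among cluster-mapping reads and of 11 somatic-type gypsy-family elements among transposon-mapping reads (%, log axis). In can 9 of the 11 elements had their lowest share of the 4 stage libraries, and flamenco also had its lowest stage share there, at 8.65%. With TMM scaling, not drawn here, flamenco and gypsy10 were lowest in bam among the 4 stage libraries, and gypsy was lowest in bgcn.

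By the root mean square distance between log2 shares over the 5 libraries, each centred on its own mean, the clusters outside X nearest to flamenco were 2LHet:336057-367088 (0.44), 3LHet:1402377-1557939 (0.46) and 2L:22369381-22420241 (0.47). The median distance of the other 98 clusters was 0.98. Among the X clusters 20A was nearest, at 0.51, followed by XD (0.80). XC (1.15), XB (1.52), XA (1.92) and XHet (2.02) were farther from flamenco than the median cluster was. The 3 nearest clusters outside X were small beside it, with shares of 0.0926 to 0.268%, 0.222 to 0.559% and 0.722 to 0.839% over the 5 libraries. A cluster that hardly varies is also close by this measure, so a small distance does not show a shared pattern. The highest share lay in sa for flamenco, but in bam for the 2LHet and 3LHet clusters. It lay in bgcn for the 2L cluster and in can for 20A.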

How the data were processed

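Testes were dissected by hand and their small RNA made into TruSeq libraries, per the labels' protocols. Bowtie (version 1) and DESeq2 appear, with no role given, in the submitters' processing notes. The authors deposited raw read counts per piRNA cluster and per transposon for 5 libraries, and a normalised signal, in which every raw count of a library is multiplied by the same factor, of unstated basis. A stray spreadsheet value below the bgcn cluster table was left out. The aub and ago3 libraries were not analysed here.

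From the counts, shares of each table's total were computed with exact binomial intervals (scipy 1.17.1). Stages were compared by the two-sided quasi-likelihood test of edgeR 4.0.16 under R 4.3.3 after TMM scaling, and p-values were adjusted by Benjamini-Hochberg over the whole table. Features with at least 10 reads in at least 2 of the 4 stage libraries were tested, 99 of 99 clusters and 114 of 117 transposons. Each standard error was derived as the absolute log2 change divided by the square root of F. Single values were compared with an exact permutation test over libraries. Alternatives were DESeq2 1.42.0, other scalings, no filter, y w in the fit and leaving out each library. The test was tested on simulated data. All 7 clusters, all 11 listed elements and the 3 nearest clusters outside X (0.5 read added) are named. The clusters and lists were chosen with earlier results of these data known.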

Additional observations from a re-analysis of the deposited data

How the results depend on the processing

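The count of clusters past the threshold was 1 of 99 after TMM scaling in edgeR. It was 13 with library totals, 51 with the authors' factors, 39 with transposon-mapping reads as library size, 17 in DESeq2 and 15 with y w in the fit, and 0 to 9 when 1 library was left out. For the X clusters these counts were 0 of 7 with TMM scaling, then 2, 3, 2, 1 and 1, and 0 to 1 when 1 library was left out. They were 0 without bam and 1 without bgcn, without can and without sa. In edgeR, RLE size factors left both counts as they were. All 99 clusters passed the filter on low counts, so leaving it out is the same fit.

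Of 70 other refits of single X clusters 51 kept sign and side of the threshold, 12 passed it anew and 7 turned in sign. The sign turned for XB with library totals (-0.083), the authors' factors (-0.62) and transposon-mapping reads (-0.34), and leave-one-out values of XB ran from -0.95 to 1.52. It turned for 20A with the authors' factors (-0.062), and for flamenco with the authors' factors (-0.60) and transposon-mapping reads (-0.20). The somatic-type elements had 0 of 11 past the threshold, 1 with the authors' factors and 1 in DESeq2, and 0 when any library was left out. Among them the sign turned with library totals for gypsy (-0.029), gypsy10 (-0.12) and Quasimodo (-0.45). With the authors' factors it turned for gypsy (-0.39), gypsy10 (-0.53), ZAM (-0.14) and Quasimodo (-0.76), and for gtwin with RLE size factors and in DESeq2 (0.010 each). Leave-one-out values ran from -0.76 to 1.47 for ZAM, -1.94 to 0.34 for Tabor, -0.35 to 0.63 for Quasimodo and -2.10 to 0.81 for gtwin. The summed X share differed by 0.014 between stages on the log2 scale, by -0.26 per transposon-mapping read, and by -0.25 to 0.28 when 1 library was left out. The number of X clusters with y w in the range of the stage libraries was 4 by share and 7 after TMM scaling. The cause of these shifts was not tested. XD rests on 3 to 23 reads per library. No paired analysis was possible, since the stage libraries come from different mutant stocks and the labels name no pairs.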
